A study of Mus musculus with 6 samples.

Results

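The genes described here are 10 genes of transforming growth factor β (TGF-β) signaling, namely the ligands Tgfb1, Tgfb2 and Tgfb3, the latency protein gene Ltbp1, the receptors Tgfbr1 and Tgfbr2, the signal transducer Smad3, the inhibitors Smad7 and Skil, and the matrix protein gene Tgfbi. They were chosen by gene symbol with earlier results of these data known, and all 10 were found among the 55357 genes listed. Each was measured by RNA-Seq in mouse cortical astrocyte cultures grown from C57BL/6 embryos, in 2 groups of 3 cultures. The KE group had received a plasmid in which the CMV promoter drives FLAG-tagged BRAF K499E, a gain-of-function RASopathy variant, and was harvested 48 hours later. The NT group is labeled naive and nontransfected, although the protocol text shared by all 6 samples describes transfection, and its Braf level was far lower than that of KE. By these labels, plasmid delivery, the CMV-driven overexpression and the mutation differ together between the groups and cannot be told apart. CMV is active in most cell types, and the table gives no measure of which cells took up the plasmid. The labels do not say whether the cultures came from separate litters or dishes, so p-values measure only the spread between these cultures.

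TGF-β ligands are secreted in a latent form, bound to their own propeptide and often to a latent TGF-β binding protein that tethers them to matrix, and must be released before they can signal. The active dimer brings together the type II receptor (Tgfbr2) and the type I receptor (Tgfbr1), which phosphorylates SMAD2 and SMAD3 so that they enter the nucleus with SMAD4. In the brain the pathway is known for roles in astrocyte reactivity and scar matrix, and for maintaining microglia, which both make TGF-β1 and depend on it.

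The values are gene counts that the authors divided by DESeq2 size factors, called normalized counts below, with totals from 30472429 to 30895529 per culture. These totals are evened out and are not depth. Dividing by the most frequent low value put the depth at approximately 24500000 to 34100000 reads. The transfected gene checked the labels, as Braf was 34933 to 40978 normalized counts in KE and 811 to 946 in NT. Astrocyte markers were abundant, with a summed level of 12 genes of 205902 to 212360 in KE and 148755 to 157935 in NT. S100b was an exception, with a mean of 17.7 in KE and 26.7 in NT. Groups were compared with limma on log2(normalized count + 1) in the 15280 genes with a mean of at least 10, and a gene was called when its Benjamini-Hochberg adjusted p-value was under 0.05. The log2FC on this scale, KE minus NT, understates the change of low genes.

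The 250 bases before the annotated start site are shown for 4 of the genes because these include the largest falls (Tgfb1 and Tgfbi), the largest rise (Smad3) and the ligand that moved opposite to Tgfb1 (Tgfb2). They were taken from RefSeq on GRCm38.p6, where they lie at chr7:25686752-25687001 (plus strand) for Tgfb1, chr1:186705990-186706239 (minus strand) for Tgfb2, chr13:56609336-56609585 (plus strand) for Tgfbi and chr9:63757995-63758244 (minus strand) for Smad3. Capitals mark the letters CAGAC (a core bound by SMAD proteins), GGGCGG (the Sp1 box) and TATAAA (the TATA box) on either strand, none of which overlap one another here.
Tgfb1: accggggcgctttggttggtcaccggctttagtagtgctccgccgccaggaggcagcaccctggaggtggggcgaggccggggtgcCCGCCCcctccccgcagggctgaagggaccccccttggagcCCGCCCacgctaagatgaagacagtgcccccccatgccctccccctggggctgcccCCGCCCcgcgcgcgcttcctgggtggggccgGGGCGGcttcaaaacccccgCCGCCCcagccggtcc
Tgfb2: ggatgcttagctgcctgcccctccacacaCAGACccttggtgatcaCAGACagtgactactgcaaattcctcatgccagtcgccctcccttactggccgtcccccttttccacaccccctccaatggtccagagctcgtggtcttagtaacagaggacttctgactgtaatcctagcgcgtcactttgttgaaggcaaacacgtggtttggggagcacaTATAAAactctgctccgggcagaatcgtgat
Tgfbi: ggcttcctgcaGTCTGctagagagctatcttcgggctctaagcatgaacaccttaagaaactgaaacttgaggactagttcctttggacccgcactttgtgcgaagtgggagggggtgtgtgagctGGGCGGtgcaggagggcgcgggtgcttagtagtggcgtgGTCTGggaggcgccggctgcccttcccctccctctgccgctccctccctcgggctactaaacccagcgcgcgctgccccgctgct
Smad3: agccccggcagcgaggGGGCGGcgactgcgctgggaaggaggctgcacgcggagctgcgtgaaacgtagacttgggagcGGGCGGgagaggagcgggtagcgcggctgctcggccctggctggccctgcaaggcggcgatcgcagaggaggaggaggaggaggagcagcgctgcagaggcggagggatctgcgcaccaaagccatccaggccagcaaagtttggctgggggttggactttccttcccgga

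The Tgfb1 window had a GC content of 75.2%, with 5 matches to GGGCGG and no TATAAA. The Tgfb2 window had a GC content of 53.6%, with 2 matches to CAGAC, none to GGGCGG, and a TATAAA that begins 31 bases before the start. Tgfbi held 2 matches to CAGAC and 1 to GGGCGG, and Smad3 held 2 to GGGCGG. Among 32851 windows of the same length in the table, CAGAC was present in 42.2%, GGGCGG in 32.7% and TATAAA in 12.4%, and the median GC content was 52.4%. The AP-1 letters TGAGTCA, found in 4.46% of all windows, and the PU.1 letters GAGGAAGT, found in 2.44%, were in none of the 9 windows listed for 7 of the genes. Entries for Tgfb3, Smad7 and Skil were not used here. The motifs were chosen after the expression values were known, and a match describes the letters only.

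The ligands did not move together. Tgfb1 (ENSMUSG00000002603), on the plus strand of chromosome 7 of GRCm39 from 25386390 to 25404506, encodes the TGF-β isoform most associated with immune cells and injury. Its normalized counts were 183, 251 and 199 in KE replicates 1, 2 and 3 and 844, 911 and 785 in the NT replicates. Every KE culture was thus far below every NT culture. On average it was 211 ± 35.5 for KE against 846 ± 62.7 for NT (SD, n = 3 each), 4.01-fold lower in KE, with a log2FC of -2.01 (standard error, SE, 0.12, limma adjusted p = 2.6e-07). Among the 15280 tested genes it held rank 416 when ordered from the largest fall.

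Tgfb2 (ENSMUSG00000039239; chromosome 1, minus strand, 186354985 to 186438294) encodes an isoform made by neural and mesenchymal cells. It was 965, 860 and 1001 in KE and 774, 791 and 833 in NT. The groups did not overlap, but the lowest KE culture was only slightly above the highest NT culture. The log2FC was 0.23 (SE 0.08, limma adjusted p = 0.029), and the call was lost without KE replicate 1 (adjusted p = 0.091), KE replicate 3 (0.10), NT replicate 1 (0.085) or NT replicate 2 (0.067).

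Tgfb3 (ENSMUSG00000021253; chromosome 12, minus strand, 86102756 to 86126301) encodes the remaining isoform. It was 968, 1059 and 1058 in KE and 1022, 1333 and 1457 in NT, so NT replicate 1 lay among the KE values. The gene was not called, with a log2FC of -0.29 (95% interval -0.54 to -0.04, limma adjusted p = 0.054). Single NT cultures moved the value: the log2FC was -0.44 without NT replicate 1 (adjusted p = 0.0018) and -0.18 without NT replicate 3 (adjusted p = 0.20). The gene was called when the replicate number entered the fit as a block (adjusted p = 0.019), and likewise with a mean filter of 50 (0.0498). Opposite-strand Ttll5, at 691 normalized counts in KE and 704 in NT, overlaps Tgfb3. The kit marks strand, and whether the counting used it is not given in the sources used here.

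**Figure D1:**
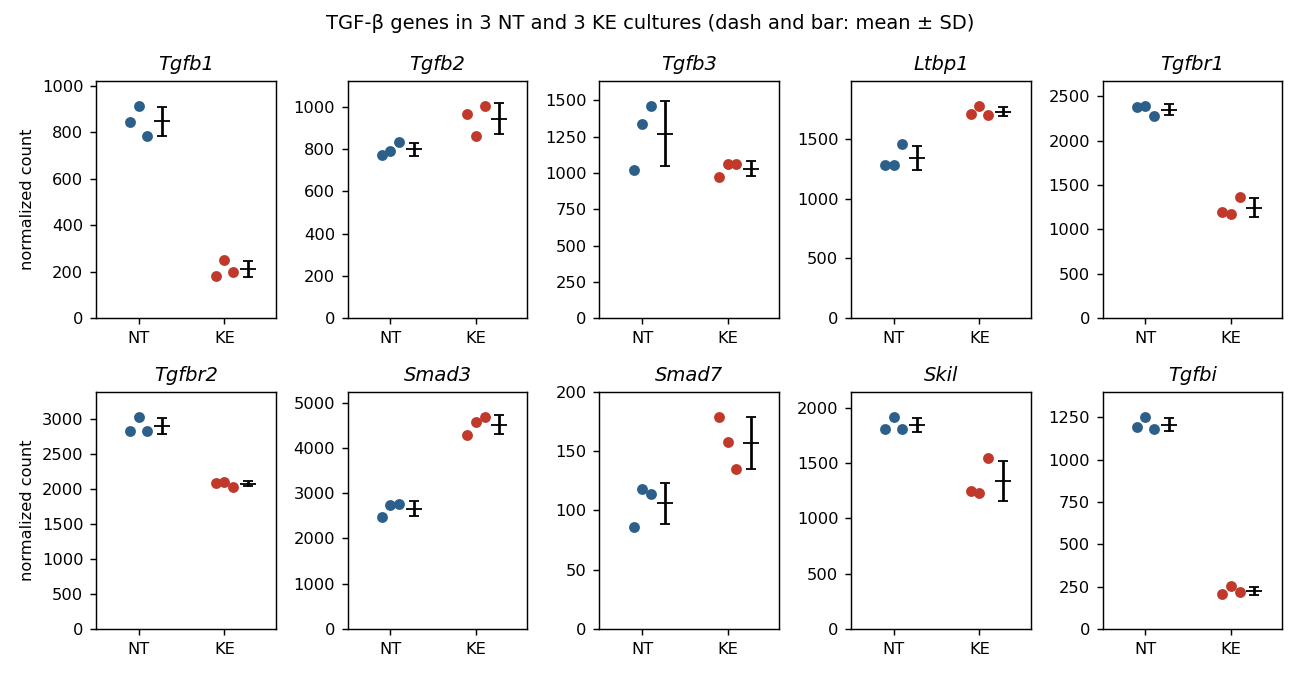
Normalized counts (y axis, from 0) of the 10 genes in the 3 NT and 3 KE cultures, 1 point per culture, with the mean and SD as a dash and bar. The KE and NT points are separate in 9 panels, with the widest gaps for Tgfb1 and Tgfbi, and they overlap for Tgfb3.

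Dividing each normalized count by the length of its gene model in kb (all Gencode exons merged) allowed the ligands to be compared with each other in level. The summed ligand level was 376, 390 and 402 normalized counts per kb in KE and 486, 561 and 567 in NT, without overlap (exact permutation p = 0.1, two-sided, the smallest that 3 against 3 cultures allows). Tgfb1 made up 9.58%, 12.7% and 9.73% of it in KE and 34.2%, 31.9% and 27.2% in NT. Its mean share was thus 10.7% ± 1.74 for KE against 31.1% ± 3.53 for NT (SD, n = 3 each). The Tgfb2 share was 38.7% ± 3.04 against 23.8% ± 1.49. The Tgfb3 share was 50.7% ± 1.35 against 45.1% ± 4.48, the highest of the 3 ligands in every culture. The groups did not overlap for the Tgfb1 and Tgfb2 shares, each with an exact permutation p of 0.1. For the Tgfb3 share they were barely separate (49.4% for the lowest KE and 49.3% for the highest NT culture, exact permutation p = 0.1), and without division by length they overlapped (exact permutation p = 0.3). Without NT replicate 1 the difference in the Tgfb3 share fell from 5.58 to 3.24 percentage points. A share is unaffected by the scaling between cultures, but it uses gene model lengths rather than the transcripts present.

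**Figure D2:**
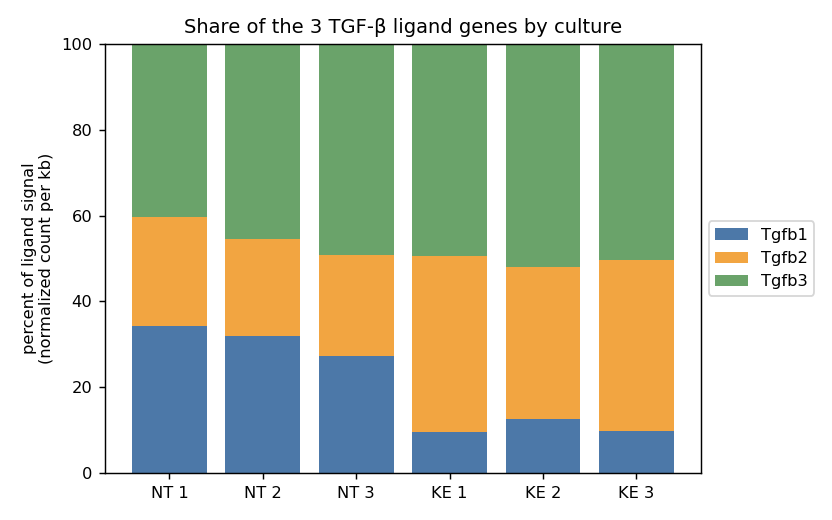
Share of Tgfb1, Tgfb2 and Tgfb3 in their summed normalized count per kb (y axis, percent), as stacked bars with 1 bar per culture. The Tgfb1 share is at most 12.7% in the KE cultures and at least 27.2% in the NT cultures.

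Ltbp1 (ENSMUSG00000001870; chromosome 17, plus strand, 75312519 to 75699507), which encodes a latent TGF-β binding protein, was 1704, 1769 and 1701 in KE and 1284, 1277 and 1459 in NT. All KE cultures were above all NT cultures. The log2FC was 0.37 (SE 0.07, limma adjusted p = 0.0012).

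Both receptor genes were downregulated. Tgfbr1 (ENSMUSG00000007613; chromosome 4, plus strand, 47353134 to 47414931), the type I receptor also called ALK5, was 1191, 1177 and 1365 in KE and 2383, 2384 and 2275 in NT. It was 1.89-fold lower in KE, with a log2FC of -0.92 (SE 0.07, limma adjusted p = 1.5e-06). Tgfbr2 (ENSMUSG00000032440; chromosome 9, minus strand, 115913361 to 116004800), the ligand-binding type II receptor, was 2094, 2104 and 2036 in KE and 2839, 3032 and 2829 in NT. It was 1.40-fold lower in KE, with a log2FC of -0.48 (SE 0.06, limma adjusted p = 4.1e-05). For neither receptor did the groups overlap. The log2 ratio of Tgfbr1 to Tgfbr2, per kb, was -0.41, -0.43 and -0.17 in KE and 0.16, 0.06 and 0.09 in NT, so Tgfbr1 was the higher of the pair in every NT culture and the lower in every KE culture. Without division by length Tgfbr1 was the lower in all 6 cultures. The ratio differed by -0.44 between the group means (exact permutation p = 0.1, two-sided).

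Smad3 (ENSMUSG00000032402; chromosome 9, minus strand, 63554049 to 63665476), the transducer that carries the receptor signal to DNA, had the largest rise of the 10 genes. It was 4279, 4571 and 4678 in KE and 2466, 2744 and 2763 in NT, and the lowest KE culture was well above the highest NT culture. On average it was 4509 ± 207 for KE against 2658 ± 166 for NT (SD, n = 3 each), 1.70-fold higher in KE, with a log2FC of 0.76 (SE 0.06, limma adjusted p = 2.9e-06). The transducers that work beside it, Smad2 and Smad4, were not called, with log2FC of 0.04 (95% interval -0.09 to 0.17) and -0.06 (95% interval -0.23 to 0.11). They were named after their values were seen.

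The 2 inhibitors moved in opposite directions. Smad7 (ENSMUSG00000025880; chromosome 18, plus strand, 75500374 to 75529006), which binds the type I receptor, blocks SMAD3 and is itself induced by TGF-β, was 179, 158 and 135 in KE and 86.3, 118 and 114 in NT. It was the least abundant of the genes in normalized counts, and the gap between the groups was narrow. The log2FC was 0.57 (SE 0.17, limma adjusted p = 0.017), and the call was lost without KE replicate 1 (adjusted p = 0.077) or NT replicate 1 (0.063). Skil (ENSMUSG00000027660; chromosome 3, plus strand, 31148816 to 31176740) encodes SnoN, a nuclear repressor of SMAD-driven transcription that is degraded and then resynthesized during signaling. It was 1246, 1229 and 1547 in KE and 1805, 1916 and 1809 in NT, lower in each KE culture than in any NT culture. The log2FC was -0.47 (SE 0.09, limma adjusted p = 0.0011).

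Tgfbi (ENSMUSG00000035493; chromosome 13, plus strand, 56757336 to 56787375), which encodes a secreted integrin-binding matrix protein first cloned as a TGF-β-induced gene, had the largest fall. It was 207, 252 and 219 in KE and 1191, 1252 and 1181 in NT. On average it was 226 ± 22.9 for KE against 1208 ± 38.0 for NT (SD, n = 3 each), 5.35-fold lower and the largest fold difference of the 10 genes. The log2FC was -2.42 (SE 0.09, limma adjusted p = 1.4e-08), and its rank among all tested genes was 359 when ordered from the largest fall.

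Of the 10 genes, all of which passed the filter, 4 were upregulated, 5 were downregulated and Tgfb3 was not called. Across all tested genes 51.3% were called, 25.3% as higher in KE and 26.0% as lower in KE. The groups did not overlap in 9 of the 10 genes, against 59.9% of tested genes overall. The median log2FC of the 10 genes was -0.38, and their median absolute log2FC was 0.52, against 0.002 and 0.30 over all tested genes. Because the 10 genes were chosen with earlier results of these data known, these comparisons only describe them. The log2FC of Tgfb1 and Tgfbi lay below the 5th percentile of all tested genes (-1.12), and none of the 10 exceeded the 95th percentile (1.01).

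**Figure D3:**
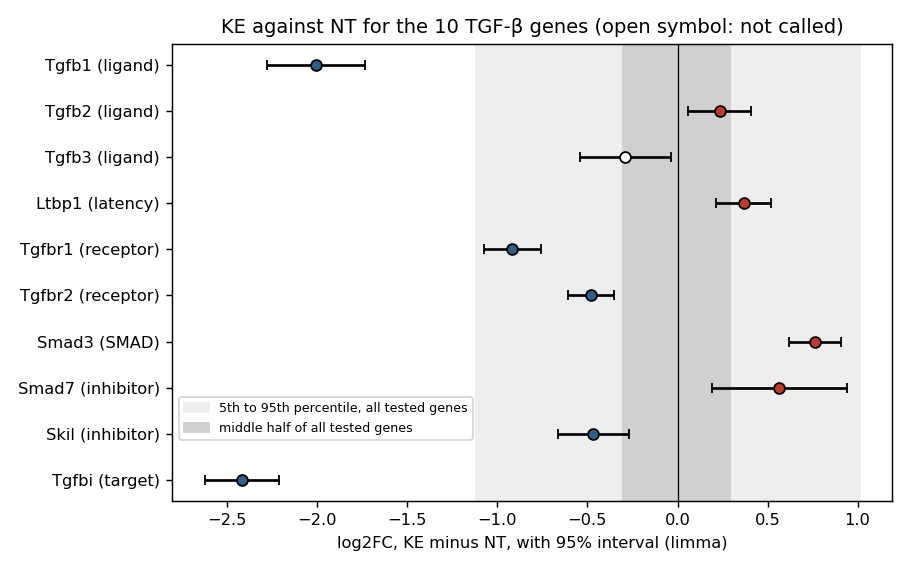
The log2FC of each of the 10 genes (x axis, KE minus NT on log2 of the normalized count plus 1, with the 95% interval from limma), over gray bands for the spread of all 15280 tested genes. Only Tgfb1 and Tgfbi lie outside the outer band, which runs from -1.12 to 1.01, and the open symbol marks Tgfb3, the gene that was not called.

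In level, measured per kb of gene model, Smad3 was the highest of the 10 genes in both groups, at 778 ± 35.7 (KE) and 459 ± 28.7 (NT) normalized counts per kb (SD, n = 3 each). In NT it was followed by Tgfbr1 (354), Tgfbr2 (330) and Tgfbi (320), whose neighboring values overlapped over cultures, then by Tgfb3 (244). Skil (183) and Tgfb1 (167) overlapped each other, as did Tgfb2 (128) and Ltbp1 (125), and Smad7 (22.4) was the lowest. In KE the order was Smad3, Tgfbr2 (236), Tgfb3 (197), Tgfbr1 (188), Ltbp1 (161), Tgfb2 (151), Skil (133), Tgfbi (59.8), Tgfb1 (41.5) and Smad7 (33.1). There the overlapping neighbors were Tgfb3 with Tgfbr1, Ltbp1 with Tgfb2, Tgfb2 with Skil, and Tgfb1 with Smad7. Tgfbi thus went from the fourth place to the eighth, and Tgfb1 from the seventh to the ninth.

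Markers of microglia and macrophages were also lower in KE. All 20 genes of that list were downregulated, with a median log2FC of -3.35 (range -4.66 to -0.88), and their summed level was 7348 to 10230 in KE and 63696 to 80160 in NT, 8.92-fold lower in KE. None of the 20 was below 1 normalized count in NT, and Csf1r and Cx3cr1, which define the lineage and were named after their values were seen, were 276 and 219 in KE against 3080 and 3336 in NT. KE replicate 2 was the highest KE culture for this sum and for Tgfb1, Tgfbi and Tgfbr2, and the lowest for Tgfbr1. This culture also had the lowest approximate depth, and its lead for Tgfbr2 was small (2104 against 2094 in KE replicate 1). In bulk RNA, fewer cells of a type and less RNA per cell cannot be told apart, and the part of these cells in the falls of Tgfb1, Tgfbi, Tgfbr1 and Tgfbr2 was not tested. The summed levels of the other lists differed less. Astrocyte markers were 1.37-fold higher in KE, and 1.43-fold without Slc1a3, the most abundant gene of the list. Oligodendrocyte markers were 29255 to 34172 in KE and 37378 to 37711 in NT, lower in KE also without Olig1 (9786 to 11309 against 13592 to 14185). Endothelial markers were 304 to 338 in KE and 441 to 543 in NT, with Cldn5, Tie1 and Emcn below 1 in NT, and without Flt1 the groups overlapped (92.0 to 127 against 116 to 224). Fibroblast markers were 8250 to 9502 in KE and 6019 to 7264 in NT, but overlapped without Islr (2620 to 2811 against 2739 to 3142). Neuronal markers were 6845 to 7251 in KE and 8819 to 9495 in NT, but overlapped without Map2 (1939 to 2113 against 1686 to 2166). Mural cell markers overlapped (3033 to 3494 in KE, 2764 to 3232 in NT), and were higher in KE without Notch3 (855 to 883 against 729 to 732). Leaving out the most abundant gene was chosen after the data were seen, and for the microglia and macrophage list, without Adgre1, it gave 6725 to 9430 in KE and 55852 to 66416 in NT. Of these lists, 8 of 12 tested astrocyte genes rose and 2 fell, 3 of 8 fibroblast genes rose and 2 fell, 2 of 4 mural genes rose, 2 of 4 endothelial genes fell, 2 of 8 neuronal genes rose and 2 fell, and 1 of 9 oligodendrocyte genes rose and 7 fell.

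**Figure D4:**
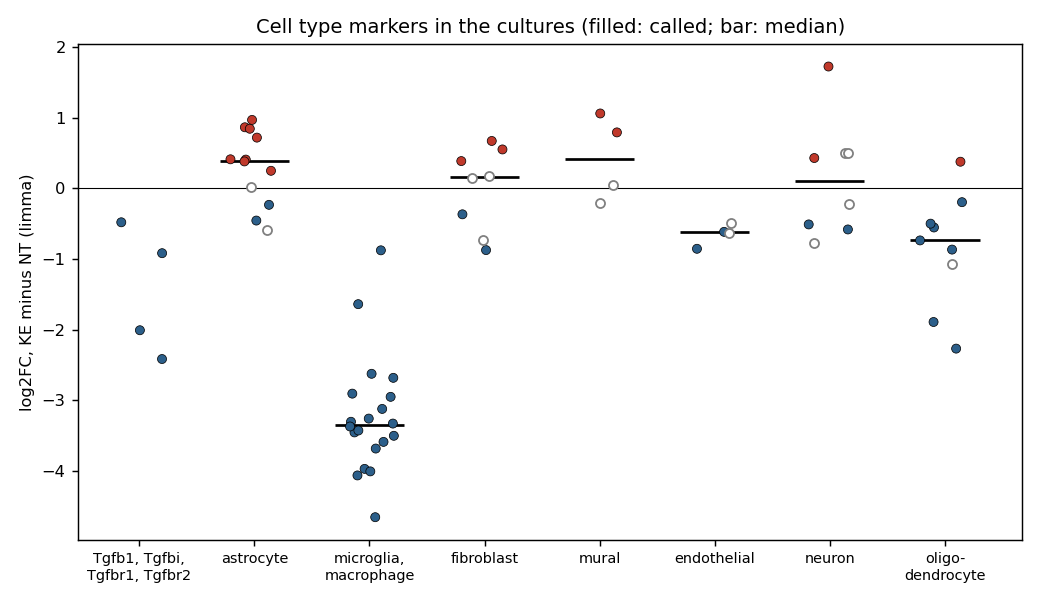
The log2FC (y axis, KE minus NT, limma) of Tgfb1, Tgfbi, Tgfbr1 and Tgfbr2 beside the tested genes of each cell type marker list, with filled points for called genes, open points for the others and a bar at each marker list's median. The microglia and macrophage list has the lowest median, -3.35, and Tgfb1 and Tgfbi lie between that median and 0.

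Beyond the 10 genes, 74 other genes of the pathway were compared by role, of which 71 were tested, 17 rose, 23 fell and 31 were not called. The 40 called genes are 56.3%, close to the background of 51.3%. Among 12 tested genes of ligand latency and activation, none rose and 6 fell. The largest falls were those of Nrros, which anchors latent TGF-β1 on microglia and other myeloid cells (57.4 ± 9.57 in KE and 351 ± 29.6 in NT, SD, n = 3, log2FC -2.60), and of Ltbp2, a matrix protein of the latent binding family (456 ± 71.5 and 1881 ± 588, log2FC -2.00). Nrros is a myeloid gene, and the microglia and macrophage markers above were also lower in KE. Whether the fall of Nrros is linked to theirs was not tested.

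The accessory receptors and the related activin ligands were mixed, with 3 of 11 tested genes upregulated and 2 downregulated. Tgfbr3, the coreceptor betaglycan that presents ligand to the type II receptor, was 435, 454 and 518 in KE and 218, 202 and 216 in NT (log2FC 1.14, limma adjusted p = 5.9e-06). It rose while both signaling receptors fell. Inhba, which encodes an activin subunit, had a log2FC of 1.61 (217, 174 and 155 in KE and 65.6, 37.0 and 82.3 in NT), and Inhbb, another activin subunit, one of -0.43. Acvrl1, the type I receptor ALK1, was too low for the rule on named genes and was picked after its values were seen, with 11.9 ± 2.13 in KE and 121 ± 27.4 in NT (SD, n = 3, log2FC -3.23).

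Of the 13 inhibitors outside the 10 genes, 6 rose and 4 fell. Bambi, a decoy receptor without a kinase domain, had the largest rise of the whole list, at 1331, 1426 and 1412 in KE and 410, 441 and 408 in NT (log2FC 1.73, limma adjusted p = 2.5e-08). Tgif1, a nuclear corepressor of SMAD2 and SMAD3, had a log2FC of 0.88. The largest falls were those of Ldlrad4 (-0.80), which competes for the receptor SMADs, and of Dcn (-0.65), the proteoglycan decorin that binds TGF-β. Among 7 tested SMADs and cofactors none rose and 2 fell, Trim33 (-0.40) and the coactivator Crebbp (-0.21). Of 6 genes of the non-SMAD arm through TAK1, only Traf4 was called, with a log2FC of -0.50.

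Genes often used as TGF-β targets split evenly, with 8 of 22 upregulated and 8 downregulated. Timp1, a metalloproteinase inhibitor, had a log2FC of 0.93. The largest falls were those of Lox and Acta2. Lox, the collagen cross-linking enzyme, was 358, 284 and 328 in KE and 3064, 3205 and 1492 in NT (log2FC -2.92), with NT replicate 3 well below the other NT cultures. Acta2, smooth muscle actin, had a log2FC of -1.34.

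**Figure D5:**
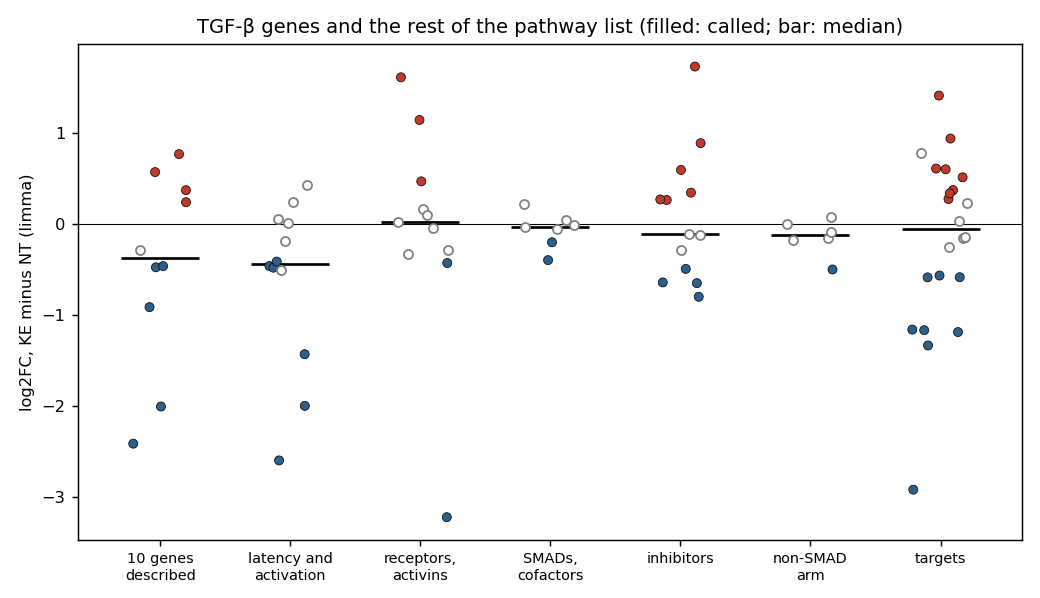
The log2FC (y axis, KE minus NT, limma) of the 10 genes and of the 71 other tested pathway genes by role, with filled points for called genes, open points for the others and a bar at each median. Calls in both directions appear among the 10 genes, the receptors and activins, the inhibitors and the targets, whereas the genes of latency and activation, the SMADs and cofactors and the non-SMAD arm have calls below 0 only.

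For each ligand, the genes of most similar pattern were sought among 12072 genes with a mean of at least 100, by the root mean square distance of log2 values centered on each gene's mean over the 6 cultures. Closest to Tgfb1 were Iqsec3 (distance 0.09), Gpnmb (0.09) and Fmnl1 (0.10), with log2FC of -2.10, -2.00 and -2.06. Tgfb2 was closest to Zfp110, Grk5 and Cox20, at distances of 0.02 to 0.03. Tgfb3 was closest to Rcan2 (0.03), Pmepa1 (0.05) and Sfrp1 (0.05). With 2 groups of 3 cultures, the distance rests largely on the difference between KE and NT.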

How the data were processed

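RNA-Seq libraries (TruSeq stranded mRNA kit) of 3 KE and 3 NT astrocyte cultures were compared. Per the labels, the authors deposited a normalized signal for each gene, that is, counts divided by DESeq2 size factors. The submitters' processing notes name Trim Galore, STAR, Salmon and DESeq2, and a human build, GRCh38, whereas the supplemental methods give GRCm39 with Gencode vM28 for mouse. The identifiers are mouse Ensembl genes, and 54749 of 55357 were found in Gencode vM39 on GRCm39, the source of gene coordinates and lengths. Because 72.7% to 75.8% of the low values came within 0.1 of whole multiples of the commonest one, whole reads were not recovered and no count test was run. KE replicate 2 had the lowest approximate depth.

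From these values, genes averaging 10 or more were tested by limma 3.58.1 (R 4.3.3) on log2(value + 1), using a variance trend and no factor besides group. The supplemental methods mention an adjustment for batches, but the labels name no batch. P-values are two-sided and adjusted by Benjamini-Hochberg over 15280 genes. Ligand shares and the receptor ratio were compared with exact permutation tests. Alternatives were other pseudocounts, filters and scalings, no trend, the replicate number as a block, values without division by length, and leaving out each culture.

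The members and the pathway and marker lists were chosen with earlier results of these data known. Named genes were the 10 members, Braf, the 2 largest rises and falls per pathway role among called genes with a mean of at least 100, and the 3 genes nearest each ligand. The most abundant gene of each marker list and markers below 1 in NT are named too. Outside the endothelial list, the latter were Dpt (fibroblast), Higd1b and Vtn (mural) and Mog (oligodendrocyte). Other exceptions are marked, and a target gene that this rule selects is not reported here.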

Additional observations from a re-analysis of the deposited data

How the results depend on the processing

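All 10 genes kept the sign of their log2FC under every alternative tried, and Tgfb1, Tgfbi, Tgfbr1, Tgfbr2, Smad3, Ltbp1 and Skil also kept their calls. The number of the 10 genes upregulated was 4, and it ranged from 2 to 4 when 1 culture was left out, being 2 without KE replicate 1 or NT replicate 1. Both losses were Tgfb2 and Smad7, whose adjusted p ranged from 0.010 to 0.10 and from 0.0058 to 0.077 over their alternatives. Tgfb2 also lost its call without the variance trend (adjusted p = 0.052). Tgfb3, whose adjusted p ranged from 0.0018 to 0.20, was called with a mean filter of 50, with the replicate block and without NT replicate 1. In each of these settings 6 of the 10 genes were downregulated. The block gave 8046 called genes against 7844. Same-numbered KE and NT cultures deviated together only weakly (r across genes 0.059, 0.066 and 0.065), and the main fit did not treat them as pairs. Each culture nevertheless correlated best with its own number, and r between different numbers ran from -0.050 to -0.010. The ligand shares kept the sign of their difference without division by length and without each culture. The receptor ratio kept its sign without each culture. Division by length cannot change the difference in this log2 ratio (-0.44). In pairs of the same number the mean differences equal those of the group means by arithmetic (-20.5, 14.9 and 5.58 percentage points and -0.44). Neither of these 2 alternatives could therefore show whether those differences are stable. The reads behind single values are unknown, so no limit from depth can be given per gene.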
